A study of Macaca fascicularis with 38 samples.

Results

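Voltage-gated potassium channel genes were followed by RNA-seq in cortical area 46, a prefrontal region, of cynomolgus macaques (Macaca fascicularis) that were biopsied ahead of chronic voluntary ethanol drinking and again afterwards. The genes are those whose symbol begins with KCN and a subfamily letter code for a voltage-gated pore (A, B, C, D, F, G, H, Q, S or V) or for one of its auxiliary subunits (AB, E or IP). Of the 29958 genes in the deposited table, 52 met this rule, and 42 of them reached a mean of 1 TPM over all libraries and were tested, TPM being the share of a library's transcripts after correction for transcript length. The table holds 32 RNA-seq libraries, a pair from each of 16 animals. Its header marks 10 animals as drinkers and 6 as controls, with 5 drinkers and 3 controls in each of the cohorts named 9 and 13, whereas the labels give an ethanol treatment to every sample. Controls were thus biopsied at the same 2 stages as drinkers, which are called before and after in either arm. Strain, age, the amounts drunk, the interval between biopsies and what controls drank were not stated in the labels or headers.

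Voltage-gated potassium channels open when the membrane depolarises and let potassium leave the cell, which repolarises the action potential and limits repetitive firing. A channel is a tetramer of pore-forming subunits, drawn from the Kv1 (KCNA), Kv2 (KCNB), Kv3 (KCNC), Kv4 (KCND), Kv7 (KCNQ) and EAG, ERG and ELK (KCNH) families. The KCNF, KCNG, KCNS and KCNV subunits form no functional channel alone and modify Kv2 channels, while KCNAB, KCNIP and KCNE encode the Kv beta subunits, the Kv4-binding KChIP proteins and small single-pass membrane subunits.

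Whole reads recovered from the TPM steps put the depth between 13.7 and 41.3 M reads per library, and cohort 13 (median 37.5 M) was deeper than cohort 9 (17.9 M). Mitochondrially encoded genes, 13 in number, held 41.7% ± 9.73 of a library's TPM before (SD, n = 16) and 36.5% ± 5.20 after, lower in 13 of 16 animals. TPM add up to a fixed total, so a smaller mitochondrial share leaves a larger share for the sum of all other genes. Single genes among them can still fall. The median log2 change over the 15324 tested genes was 0.17 over all pairs. The part of the mitochondrial share in this shift was not tested. The changes of the channel genes are given beside that shift.

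All 13 subfamilies had at least 1 member above the 1 TPM minimum. TPM is a level per transcript length, so levels can be compared between genes on this scale. The ELK channel gene KCNH3 had the highest level, 155 ± 34.9 TPM before and 142 ± 22.1 after (SD, n = 16). The KChIP gene KCNIP3, whose product also binds DNA and presenilin, followed at 150.2 ± 35.3 and 129 ± 19.3 TPM, and the beta subunit gene KCNAB2 at 119 ± 39.3 and 106 ± 20.9 TPM. Over all libraries the levels of these 3 overlap, and the order among them was not tested. Below them came, among others, KCNIP4 at a mean of 82.4 TPM over all libraries, the fast Kv3 gene KCNC2 at 57.0, the Kv2 modifier KCNS1 at 52.6, the axonal Kv1 gene KCNA2 at 48.4 and KCNF1 at 43.2. KCNV1 (33.9), KCNG1 (22.9), the A-current gene KCND2 (20.2) and KCNE2 (3.08) led their subfamilies. In all, 3 genes were above 100 TPM, 24 lay between 10 and 100, 15 between 1 and 10, and 10 below 1.

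**Figure D1:**
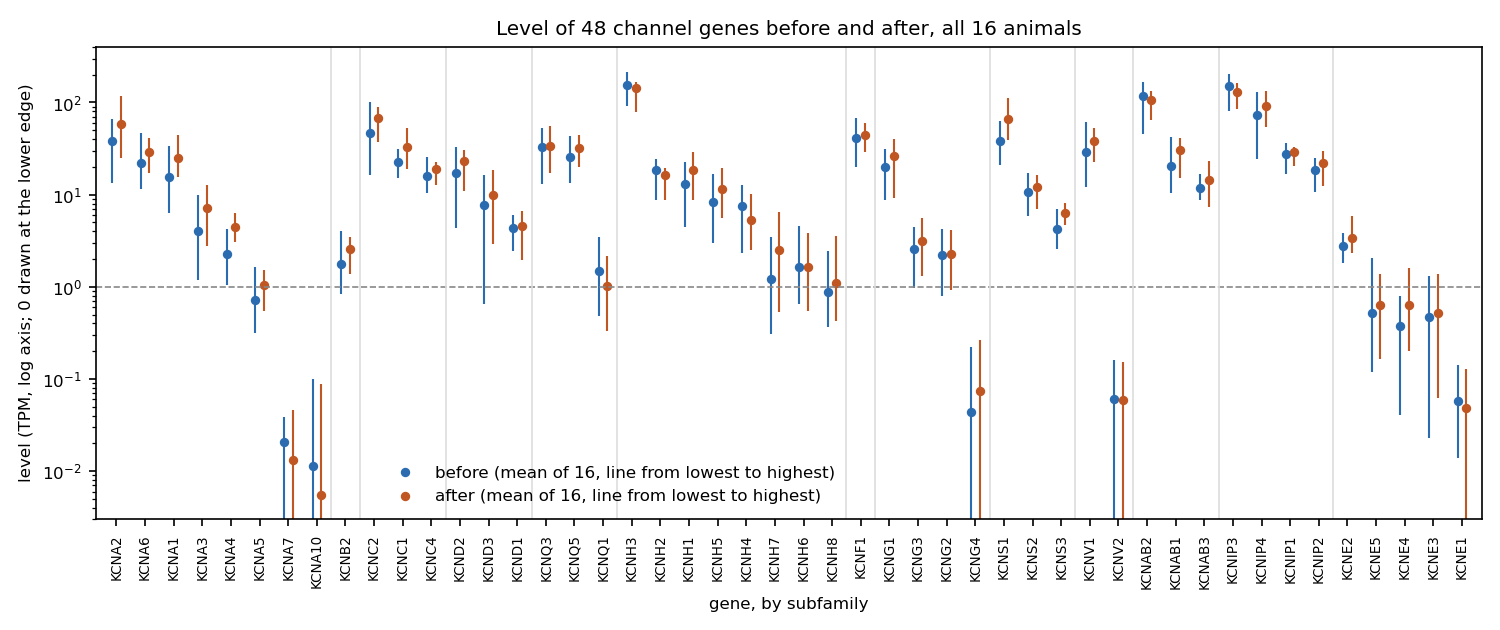
Level in TPM (log axis) of 48 of the genes, grouped by subfamily, before (blue) and after (orange). Points are means of 16 libraries, lines run from the lowest to the highest library and the dashed line marks 1 TPM. KCNH3, KCNIP3 and KCNAB2 sit above 100, and 10 genes have means below 1.

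The 10 genes below the minimum were KCNA5, KCNA7, KCNA10, KCNE1, KCNE3, KCNE4, KCNE5, KCNG4, KCNH8 and KCNV2. KCNA10 was above 0 in 4 of 32 libraries with at most 3 recovered reads, and KCNA7 in 22 with at most 4. KCNH8, an ELK channel gene at a mean of 0.984 TPM, lay just under the minimum, and KCNQ1 at 1.24 TPM just over it. Without a minimum, the adjusted p was below 0.05 for KCNA5, a Kv1 gene known from heart and smooth muscle, and for KCNE4, at log2 changes of 0.28 ± 0.08 and 0.23 ± 0.08 (SE; limma-trend, adjusted p = 0.0203 and 0.0499).

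Over all 16 animals, after was compared with before to ask which channel genes change over the experiment. Of the 42 tested genes 21 rose and 2 fell, by limma-trend on log2(TPM + 1) with the animal as a block and a Benjamini-Hochberg adjusted p below 0.05 over all genes. The background was 32.9% of all tested genes higher and 3.69% lower, beside 50% and 4.76% of the channel genes. Their median log2 change was 0.37, beside 0.17 over all genes. Those that rose included all 5 tested KCNA genes, 1 of 3 KCND, 3 of 7 KCNH, 2 of 3 KCNS, KCNV1, 1 of 3 KCNAB, 2 of 4 KCNIP and KCNE2, while KCNH4 and KCNQ1 fell. With each library scaled to a common median, 12 rose and 7 fell, beside 9.7% of all genes higher and 17.1% lower, and the medians were 0.15 and -0.041. All 12 were among the 21, and the genes newly called lower included KCNH2, KCNH3, KCNH6 and KCNIP3. When each animal was left out in turn, 16 of the 23 calls held throughout. The other 7 were lost without certain animals: KCND2 without X10197, KCNV1 without X10197, X10201, X10203 or X10227, KCNE2 without X10200, X10201, X10207, X10226 or X10227, and KCNH5, KCNH7, KCNIP4 and KCNQ5 in 7 to 9 of the 16 omissions.

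Kv1 genes encode the low-threshold channels of axons and terminals. KCNA4, a fast-inactivating Kv1 gene, had the smallest p of all members and between 178 and 1298 recovered reads per library. Its level ran from 1.04 to 4.19 TPM (median 1.93) in drinkers before and from 3.06 to 6.39 (median 4.80) after. In controls it ran from 1.23 to 3.48 TPM (median 1.98) before and from 3.31 to 4.96 (median 3.94) after. It was higher after in 10 of 10 drinkers and 6 of 6 controls, although the before and after ranges overlapped in both arms. By animal the log2 change ran from 0.093 in the control X10234 to 1.46 in the drinker X10203. The mean log2 change was 0.77 ± 0.10 (SE, n = 16; limma-trend, adjusted p = 8.73e-05) as deposited and 0.56 ± 0.07 after median scaling (adjusted p = 8.34e-05).

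KCNA1, expressed in axons and at juxtaparanodes, ran from 6.26 to 33.7 TPM (median 13.1) in drinkers before and from 15.6 to 44.3 (median 25.5) after. The control range for KCNA1 went from 9.80 to 27.1 TPM (median 11.2) to 16.7 to 38.9 (median 21.2). It rose by 0.74 ± 0.16 on the log2 scale (adjusted p = 0.0035), with 13 of 16 animals higher. KCNA3, the Kv1 gene best known from lymphocytes and microglia, had medians of 3.54 and 7.22 TPM in drinkers and 3.10 and 4.19 in controls, before and after. Its log2 change was 0.73 ± 0.18 (adjusted p = 0.00558). The microglial markers measured alongside had a median log2 change of -0.34, and the cell source of the KCNA3 reads was not tested. KCNA6 rose by 0.45 ± 0.12 and KCNA2 by 0.58 ± 0.18 (adjusted p = 0.0103 and 0.0192), with 13 and 11 of 16 animals higher. In the T2T-MFA8v1.1 annotation KCNA3 lies next to KCNA2 and KCNA2 next to KCNA10, and KCNA6 lies next to KCNA1. All 5 Kv1 genes remained called higher after median scaling.

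**Figure D2:**
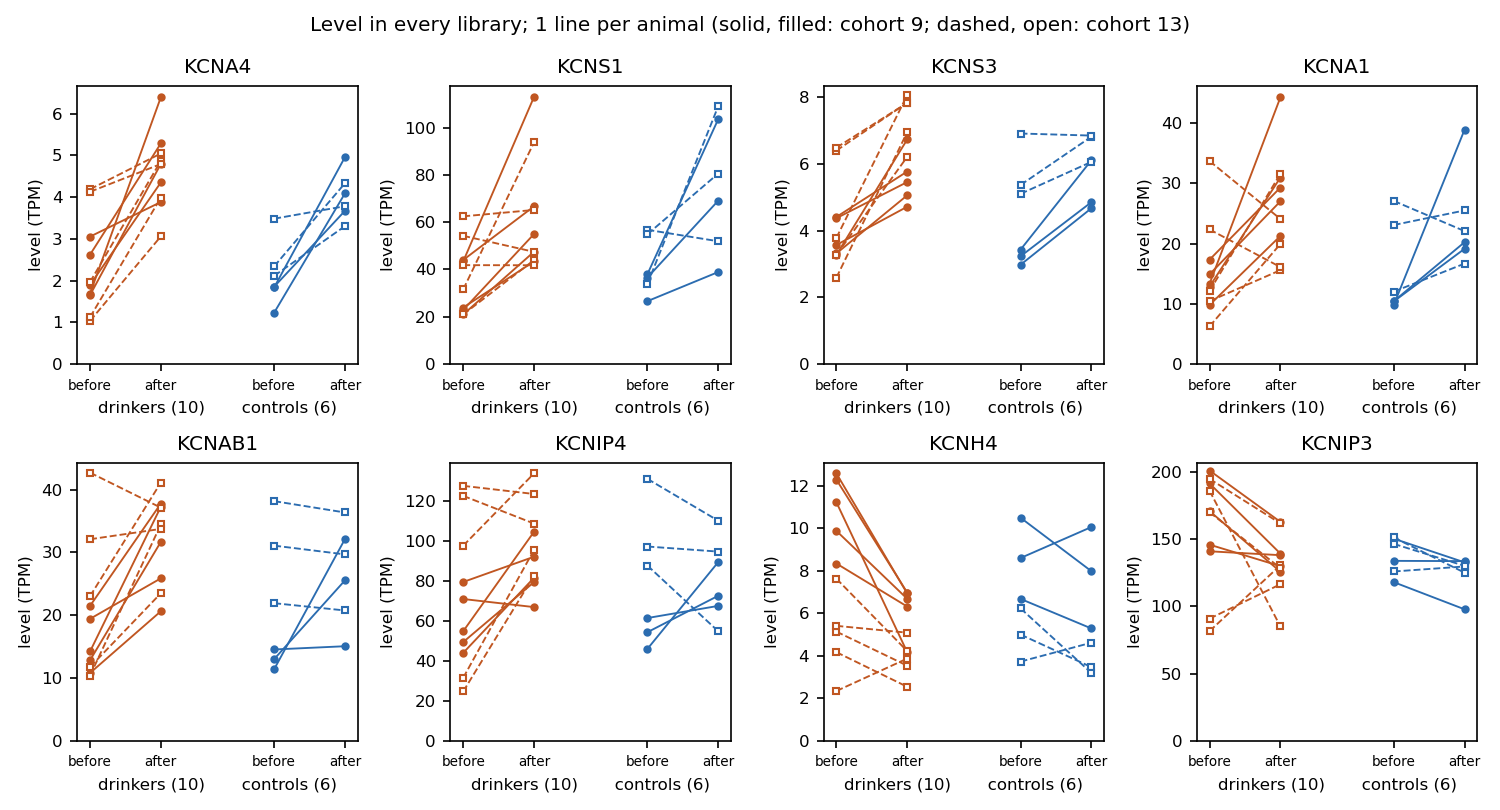
Level in TPM of 8 genes in every library, with 1 line per animal from before to after, drinkers orange and controls blue, cohort 9 solid and cohort 13 dashed. Every KCNA4 line goes up, most KCNH4 lines go down, and KCNAB1 and KCNIP4 lines go up in 9 and 7 of 10 drinkers and in 3 of 6 controls each.

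Kv2 channels carry much of the delayed rectifier current of cell bodies. KCNB2, a Kv2 pore gene, rose by 0.40 ± 0.12 (adjusted p = 0.0174). After median scaling it was no longer called, at 0.19 (adjusted p = 0.0914).

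Kv3 channels deactivate fast and allow high firing rates, as in parvalbumin-positive interneurons. KCNC1 ran from 15.01 to 31.3 TPM (median 22.9) in drinkers before and from 19.2 to 49.7 (median 29.9) after, and in controls from 16.5 to 29.1 (median 19.7) and from 25.3 to 53.0 (median 34.9). It was higher after in 7 of 10 drinkers and 6 of 6 controls and rose by 0.51 ± 0.12 (adjusted p = 0.00497). KCNC2 had medians of 36.7 and 74.7 TPM in drinkers and of 41.6 and 64.3 in controls, and it was higher in 8 of 10 and 3 of 6 animals. Its log2 change was 0.62 ± 0.17 (adjusted p = 0.0112). KCNC4, at 0.25 ± 0.10, did not pass the threshold. Among the A-current genes KCND2 rose by 0.54 ± 0.18 (adjusted p = 0.0248) and was not called after median scaling (0.32, adjusted p = 0.11), while KCND3 and KCND1 were at 0.42 ± 0.22 and 0.051 ± 0.10, the second at -0.16 after median scaling.

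Kv7 channels carry the muscarine-sensitive M-current. KCNQ5 rose by 0.37 ± 0.13 (adjusted p = 0.0341) and lost its call after median scaling. KCNQ1, best known from heart and inner ear, was low, with medians of 1.37 and 0.969 TPM in drinkers and 1.38 and 1.05 in controls. It fell by 0.28 on the log2 scale (SE 0.09, adjusted p = 0.0237) and was lower in 6 of 10 drinkers and 6 of 6 controls. The neuronal M-current gene KCNQ3 was at 0.056 ± 0.12 as deposited and -0.16 after median scaling, without a call.

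The KCNH family held members that rose and a member that fell. The EAG genes KCNH1 and KCNH5 and the ERG gene KCNH7 rose by 0.52 ± 0.16, 0.51 ± 0.18 and 0.57 ± 0.20 (adjusted p = 0.0181, 0.0325 and 0.0316). After median scaling KCNH5 and KCNH7 were no longer called, at 0.30 and 0.35 (adjusted p = 0.105 and 0.111), nor were they by limma-voom (adjusted p = 0.0641 and 0.0651). KCNH4, an ELK channel gene, ran from 2.33 to 12.6 TPM (median 7.98) in drinkers before and from 2.53 to 6.97 (median 4.65) after. In controls KCNH4 ran from 3.72 to 10.5 TPM (median 6.45) and from 3.19 to 10.1 (median 4.95). It was lower after in 9 of 10 drinkers and 4 of 6 controls, and it fell by 0.39 (SE 0.11, adjusted p = 0.0124), or by 0.61 after median scaling. KCNH3 and the ERG gene KCNH2 were at -0.11 ± 0.08 and -0.16 ± 0.10 as deposited, without a call. After median scaling they fell by 0.32 and 0.38 (adjusted p = 0.0226 and 0.0134).

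Among the modifier subunits KCNS1 changed most, and on the log2(TPM + 1) scale its change was the largest of the 42 genes. By limma-voom on the recovered reads KCNA4 (0.90), KCNA3 (0.75) and KCNH7 (0.73) exceeded KCNS1 (0.67). Its level ran from 21.0 to 62.5 TPM (median 36.7) in drinkers before and from 41.8 to 113 (median 51.3) after, and in controls from 26.6 to 56.8 (median 37.2) and from 38.9 to 109 (median 74.8). It was higher in 8 of 10 drinkers and 5 of 6 controls, at 0.78 ± 0.14 (adjusted p = 0.000807). KCNS3, known from parvalbumin-positive interneurons of primate cortex, had medians of 3.68 and 6.47 TPM in drinkers and 4.27 and 6.09 in controls. KCNS3 was higher in 10 of 10 drinkers and 5 of 6 controls and rose by 0.48 ± 0.09 (adjusted p = 0.000831). KCNV1 rose by 0.58 ± 0.19 (adjusted p = 0.0251) and was not called after median scaling (0.37, adjusted p = 0.0783). KCNF1 and KCNG1 were at 0.15 ± 0.09 and 0.37 ± 0.17 without a call, and KCNS2, KCNG2 and KCNG3 lay between 0.032 and 0.21. After median scaling KCNF1, KCNG2 and KCNS2 were below 0, at -0.064, -0.18 and -0.025.

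Auxiliary subunits for the Kv1 and Kv4 pores were less uniform. The beta subunit gene KCNAB1 had medians of 16.8 and 34.1 TPM in drinkers and 18.2 and 27.6 in controls and rose by 0.63 ± 0.14 (adjusted p = 0.00375). KCNAB2 ran from 45.5 to 168 TPM (median 127) in drinkers before and from 64.0 to 133 (median 108) after, with control medians of 113 and 115. Its log2 change was -0.10 ± 0.12 (adjusted p = 0.53), below that of most members. KCNIP4 and KCNIP2 rose by 0.42 ± 0.15 and 0.25 ± 0.08 (adjusted p = 0.0349 and 0.0235). Neither was called after median scaling, at 0.20 and 0.033 (adjusted p = 0.237 and 0.795). KCNIP3 was at -0.19 ± 0.09 without a call and fell by 0.40 after median scaling (adjusted p = 0.0035). KCNE2, the single tested KCNE gene, rose by 0.20 ± 0.07 (adjusted p = 0.0295), close to the shift of all genes, and was at -0.011 after median scaling. Libraries were unstranded, and in T2T-MFA8v1.1 KCNE2 overlaps MRPS6 and SLC5A3, KCND2 overlaps TSPAN12, KCNH3 overlaps MCRS1, KCNIP4 overlaps PACRGL and KCNS3 overlaps LOC141408273, so reads of these pairs may not have been separable.

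The change within drinkers was then taken, as the arm in which ethanol was drunk. Drinkers and controls were fitted together, so the SE and p of each arm rest on 1 spread shared by all 16 animals. In these 10 animals 13 channel genes rose and KCNH4 fell, beside 32.7% of all genes higher and 3.23% lower, that is 31% and 2.38% of the channel genes. The median log2 change was 0.30 for channel genes and 0.20 for all genes. In the drinkers X10226 and X10227 the libraries of the 2 biopsies carry different RNA codes in their titles. Over pairs of 1 RNA code, 4 channel genes rose and 0 fell in drinkers, beside 9.46% and 1.1% of all genes. KCNA3 at 0.83 ± 0.22, KCNA4 at 0.81 ± 0.13, KCNC2 at 0.80 ± 0.21, KCNA1 at 0.79 ± 0.21, KCNAB1 at 0.79 ± 0.17 and KCNS1 at 0.76 ± 0.18 were the largest (SE, n = 10; limma-trend, adjusted p from 0.00116 to 0.0104). KCND2, KCNV1, KCNH5, KCNIP4, KCNS3, KCNC1 and KCNE2 also rose, by 0.74 to 0.24, and KCNH4 fell by 0.49 (SE 0.14). After median scaling 7 rose and 9 fell, beside 12.1% and 19.4% of all genes. Among the 9 were KCNAB2, KCND1, KCNH2, KCNH3, KCNH4, KCNH6, KCNIP3 and KCNQ1. Leaving out animal X10230 gave 20 genes higher, the most of any single omission, against 13 with all animals. In X10230, 21.85% of all tested genes were higher after. Leaving out X10229 or X10206 gave 3 or 2 lower against 1. The share of all genes called in these omissions is not given, so these counts have no background beside them. KCNC1, KCNE2, KCNH5 and KCNV1 lost their call in 7 to 10 of the 16 omissions of 1 animal, while the other 10 genes called in drinkers kept it in each.

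The 6 controls went through the same biopsies. No channel gene passed the threshold in controls by limma-trend, where 0.3% of all genes did. An unadjusted p below 0.05 was found for 9 channel genes, beside 12.8% of all genes. The median log2 change of the 42 channel genes was 0.31, beside 0.12 over all genes. KCNS1 at 0.82 ± 0.23, KCNA4 at 0.70 ± 0.17 and KCNC1 at 0.69 ± 0.19 had the smallest p-values (SE, n = 6; limma-trend, adjusted p = 0.141, 0.0927 and 0.141). KCNA4 passed after median scaling (adjusted p = 0.0419), as the 1 gene of 42 beside 0.581% of all genes, and by limma-voom on the recovered reads (adjusted p = 0.0335).

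**Figure D3:**
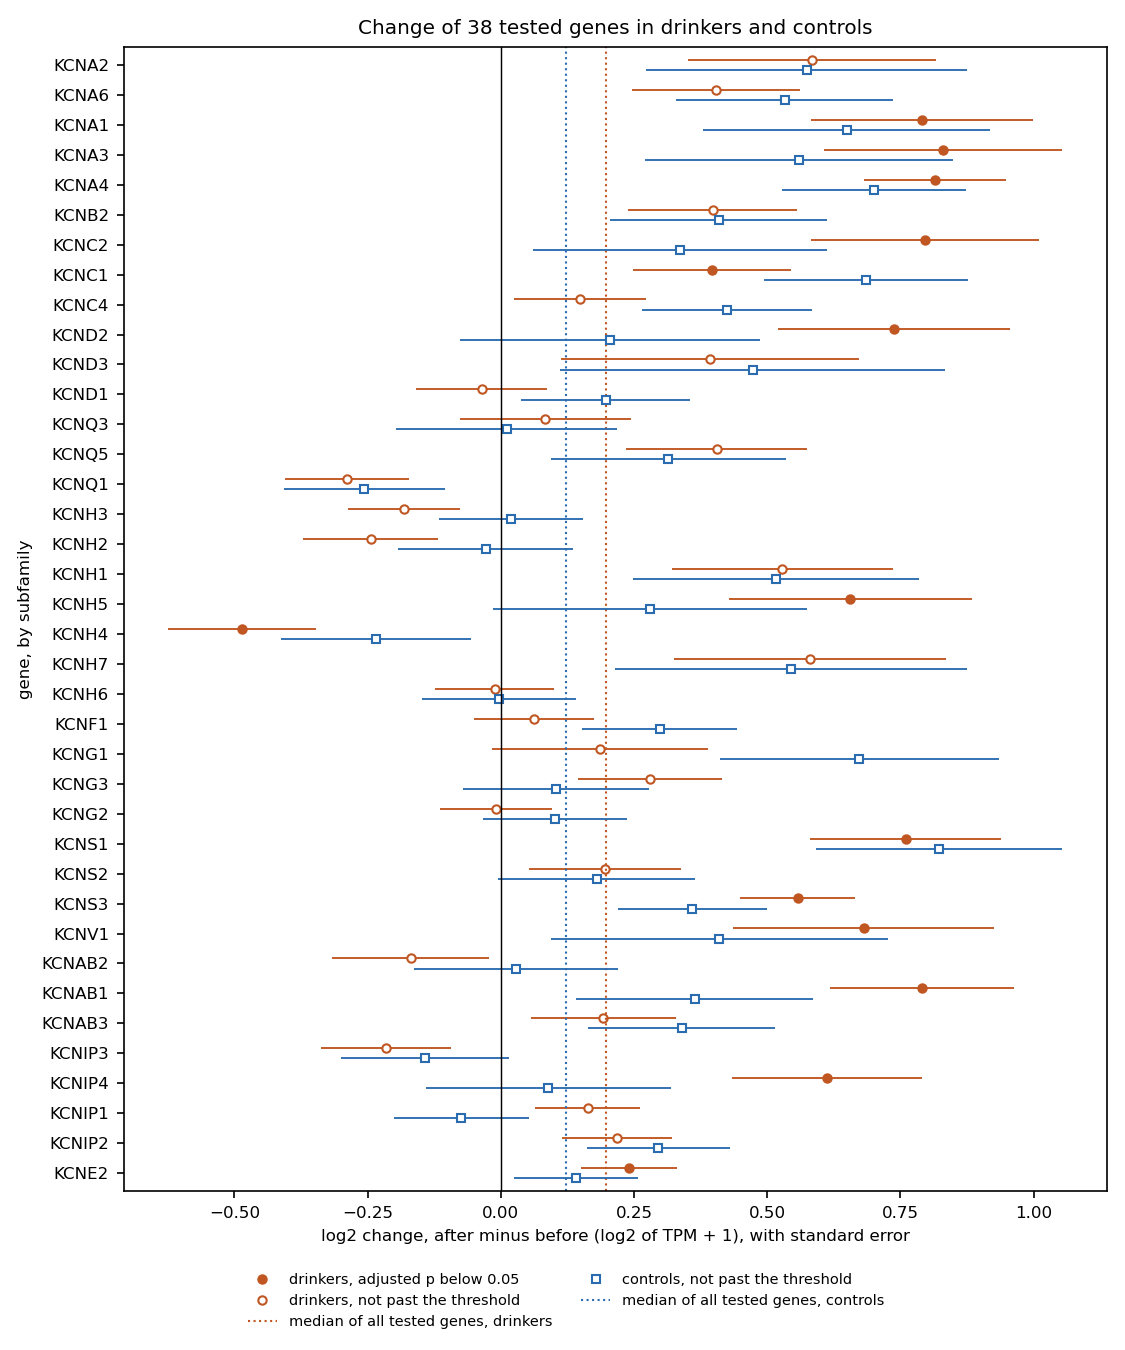
Log2 change after minus before with its SE for 38 of the tested genes in drinkers (orange circles) and controls (blue squares), filled where the adjusted p was below 0.05. Dotted lines mark the medians over all genes, 0.20 and 0.12. In controls no symbol is filled, and KCNS1, KCNC1 and KCNG1 are among the genes that lie farther right there than in drinkers. Over the 42 tested genes the median difference, drinkers minus controls, was -0.022.

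A test of the difference itself, the change in drinkers minus that in controls, called no channel gene and 0% of all genes. No channel gene had an unadjusted p below 0.05 by limma-trend, beside 6.76% of all genes, and limma-voom called 0. After median scaling no channel gene and 0% of all genes were called, with 4 channel genes at an unadjusted p below 0.05, beside 10.5% of all genes. They were KCNC4 (-0.40, p = 0.0141), KCNC1 (-0.41, p = 0.0299), KCND1 (-0.36, p = 0.0307) and KCNF1 (-0.36, p = 0.0422), each with an adjusted p of 0.439 by limma-trend, and KCNC4 was also below 0.05 by limma-voom (p = 0.0318). The median difference over the 42 genes was -0.022 as deposited. On that scale the smallest p-values belonged to KCNIP4 at 0.52 ± 0.29, KCNAB1 at 0.43 ± 0.28 and KCND2 at 0.53 ± 0.36 (unadjusted p = 0.0884, 0.145 and 0.149; adjusted p = 0.634, 0.642 and 0.645). KCNIP4 ran from 24.6 to 128 TPM (median 62.8) in drinkers before and from 66.8 to 134 (median 93.8) after, and in controls from 45.9 to 131 (median 74.5) and from 54.8 to 110 (median 80.9). The 95% interval of the difference reached from -0.086 to 1.13 for KCNIP4, and at the median of the 42 genes it extended 0.52 to either side. Differences of that size between drinkers and controls were thus not detectable with these animals, and the missing calls do not show that the arms changed alike.

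Drinkers and controls were also compared at each biopsy, with cohort as a covariate. Before, no channel gene was called, nor was any of all genes (0%), and after the same held (0%). On the values as deposited limma-trend gave no channel gene an unadjusted p below 0.05 at either biopsy, where 218 of all genes had one before and 1084 after. After median scaling none was called either, and an unadjusted p below 0.05 was found for KCNF1 and KCNG2 before, both higher in drinkers, and for KCNAB2, KCNC1, KCNC4 and KCNH2 after, all lower in drinkers, beside 4.98% and 8.84% of all genes. The summed level of the 52 genes was 1173 ± 327 TPM in drinkers and 1090 ± 151 in controls before (SD, n = 10 and 6), and 1305 ± 232 and 1270 ± 192 after. The KCNA sum went from 85.1 ± 36.8 to 127 ± 40.9 TPM in drinkers and from 78.3 ± 20.8 to 122 ± 43.7 in controls. The KCNIP sum was 273 ± 67.0 and 279.5 ± 36.3 TPM in drinkers and 265 ± 42.2 and 258 ± 23.9 in controls.

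The cohorts, sequenced to different depths, gave different numbers of calls. Their libraries also carry different RNA codes, 1 in cohort 9 and 2 in cohort 13, so that cohort and code cannot be told apart. In cohort 9, 18 channel genes rose and 1 fell, beside 30.5% and 4.69% of all genes. After median scaling 15 rose and 9 fell there, beside 11.8% and 18.3% of all genes. On the values as deposited, without X10206 or X10226 the lower count was 0 or 3, and the share of all genes in these omissions is not given. In cohort 13 the 1 gene called was KCNA4, higher by 0.61 ± 0.14 (SE, n = 8; limma-trend, adjusted p = 0.0389), beside 1.07% of all genes called in either direction. That call was lost in 8 of 16 omissions, those of X10198, X10200, X10206, X10226, X10227, X10229, X10232 and X10233, with an adjusted p of at most 0.134. Of these, X10198, X10200 and X10206 belong to cohort 9. Leaving them out changes only the shared spread and the adjustment over genes, not the cohort 13 log2 change. The difference between cohorts was called for no channel gene by limma-trend and for 0.0131% of all genes. An unadjusted p below 0.05 was found for 5 channel genes, beside 7.49% of all genes. With array weights, which give each library a weight by its spread, 22 channel genes were called, beside 47.2% of all genes. With equal weights KCNH7 had the smallest p, at 1.18 ± 0.21 in cohort 9 and -0.049 ± 0.21 in cohort 13 (difference -1.23 ± 0.30, unadjusted p = 0.000464, adjusted p = 0.243). It was higher after in 8 of 8 animals of cohort 9 and 3 of 8 of cohort 13. KCNH5 and KCNA1 followed at differences of -0.86 ± 0.32 and -0.79 ± 0.28 (adjusted p = 0.621 and 0.596).

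Within cohort 13 the animals did not move together. The median change over the 42 genes was above 0 in 8 of 8 animals of cohort 9, from 0.048 to 0.79 on the log2 scale, and in 3 of 8 of cohort 13, from -0.28 to 0.84. Animals X10227, X10229 and X10232 of cohort 13 were at 0.70, 0.84 and 0.37, and their mitochondrial percent went from 56.4 to 36.2, from 45.7 to 27.1 and from 46.0 to 37.8. The 2 libraries of X10227 carry different RNA codes, as do those of X10232 and of X10226, and for X10232 the order of the codes is the opposite of that for the other two. The other 5 lay between -0.28 and -0.011, among them X10230, with 34 of 42 genes lower and a mitochondrial percent that went from 21.7 to 31.5. For X10226, at -0.18, the mitochondrial percent went from 50.9 to 46.1, and for X10236, at -0.28, from 29.75 to 29.66. For X10233 and X10234, at -0.011 and -0.17, it went from 29.0 to 31.4 and from 30.7 to 34.7. Of all 16 animals, 11 had a higher median for the channel genes than for all genes.

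**Figure D4:**
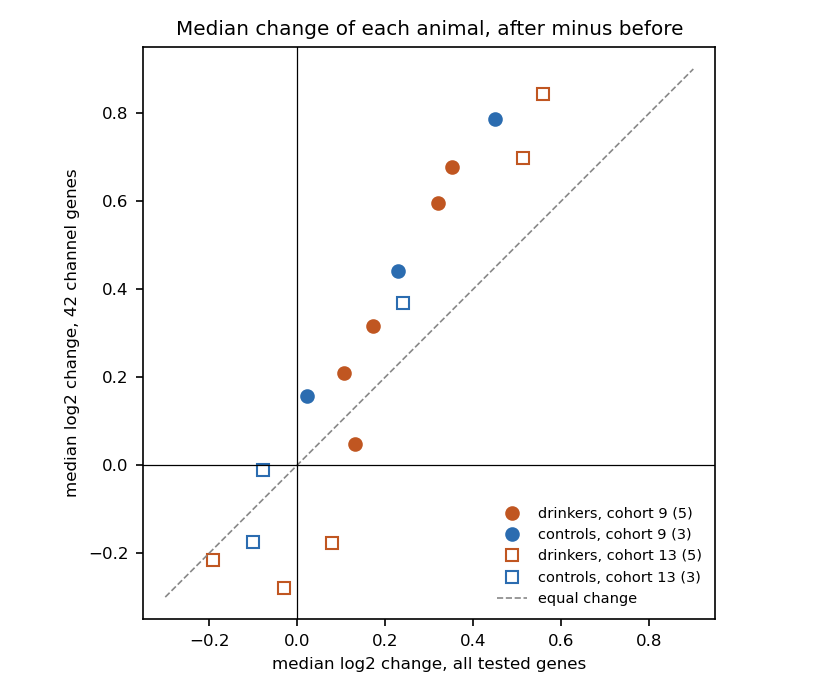
Median log2 change of the 42 channel genes against that of all 15324 genes, 1 point per animal, drinkers orange and controls blue, cohort 9 filled circles and cohort 13 open squares. All 8 cohort 9 points lie above 0 on the vertical axis, and 5 of the 8 cohort 13 points lie below it.

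Most neuronal markers rose over all pairs, as did 21 of the 42 tested channel genes. Of 8 general neuronal markers 6 rose and 0 fell over all pairs, and their summed level ran from 2157 to 8110 TPM in drinkers before and from 4062 to 7262 after, and in controls from 2236 to 6730 and from 3657 to 5706. All 6 fast-spiking interneuron markers rose, among them VAMP1 by 0.61 ± 0.11, the synaptotagmin SYT2 by 0.91 ± 0.20 and PVALB by 0.40 ± 0.11. Their sums ran from 139 to 296 and from 209 to 489 TPM in drinkers and from 142 to 348 and from 195 to 500.1 in controls. Of 8 inhibitory markers 7 rose and of 8 excitatory markers 5 rose. The excitatory sum had medians of 1846 and 1729 TPM in drinkers and 1627 and 1676 in controls, before and after. By animal, the mean of the inhibitory markers was higher after in 16 of 16 and that of the general neuronal markers in 12. The channel gene median was above 0 in 11 of 16. In cohort 13 these were 8, 4 and 3 of 8 animals. Microglial markers went the other way, with 7 of 8 lower, oligodendrocyte markers had 3 of 8 higher, astrocyte markers 1 higher and 1 lower, and 2 of 4 measured blood markers were lower. No precursor, endothelial or mural cell marker was called. After median scaling the calls were 5 of 8 general neuronal, 4 of 8 inhibitory and 3 of 6 fast-spiking markers higher, 4 excitatory markers higher and 2 lower, and no oligodendrocyte marker. PVALB was not called there, at 0.19 (limma-trend, adjusted p = 0.295). On that scale 7 microglial, 3 astrocyte, 2 of 4 precursor, 3 of 5 endothelial and 2 blood markers were lower. No list had a marker at 0 in every library of an arm. More neurons in the biopsy and more channel RNA per neuron cannot be told apart in such samples.

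With mean marker levels as covariates (those of oligodendrocytes, astrocytes and neurons), 1 channel gene was called over all pairs, KCNA4 at 0.47 ± 0.09 (limma-trend, adjusted p = 0.0115), beside 1.74% of all genes, and the median of the channel genes was -0.019. With the neuronal markers alone, a covariate chosen after seeing the data, the result was again KCNA4, at 0.47 (adjusted p = 0.0129), beside 1.29% of all genes. KCNH4 was at -0.54 ± 0.14 and KCNS3 at 0.30 ± 0.08 with all 3 covariates (adjusted p = 0.052 and 0.0692). KCNA1, at 0.74 without them, was at 0.14 ± 0.08, and KCNC1, KCNC2 and KCNS1 were at 0.17, 0.079 and 0.37 without a call. In drinkers the genes called with the covariates were KCNA4 at 0.53 ± 0.11 and KCNIP3 at -0.44 ± 0.10 (adjusted p = 0.0302 and 0.0382). With the mitochondrial percent as covariate, also chosen after seeing the data, KCNA4, KCNS1, KCNS3 and KCNH4 were called over all pairs, at 0.58, 0.51, 0.32 and -0.52. The share of all genes called is not given for this fit or for the drinkers with covariates, so these calls have no background beside them. The part of cell makeup and of the mitochondrial share in the changes was not tested beyond these fits.

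**Figure D5:**
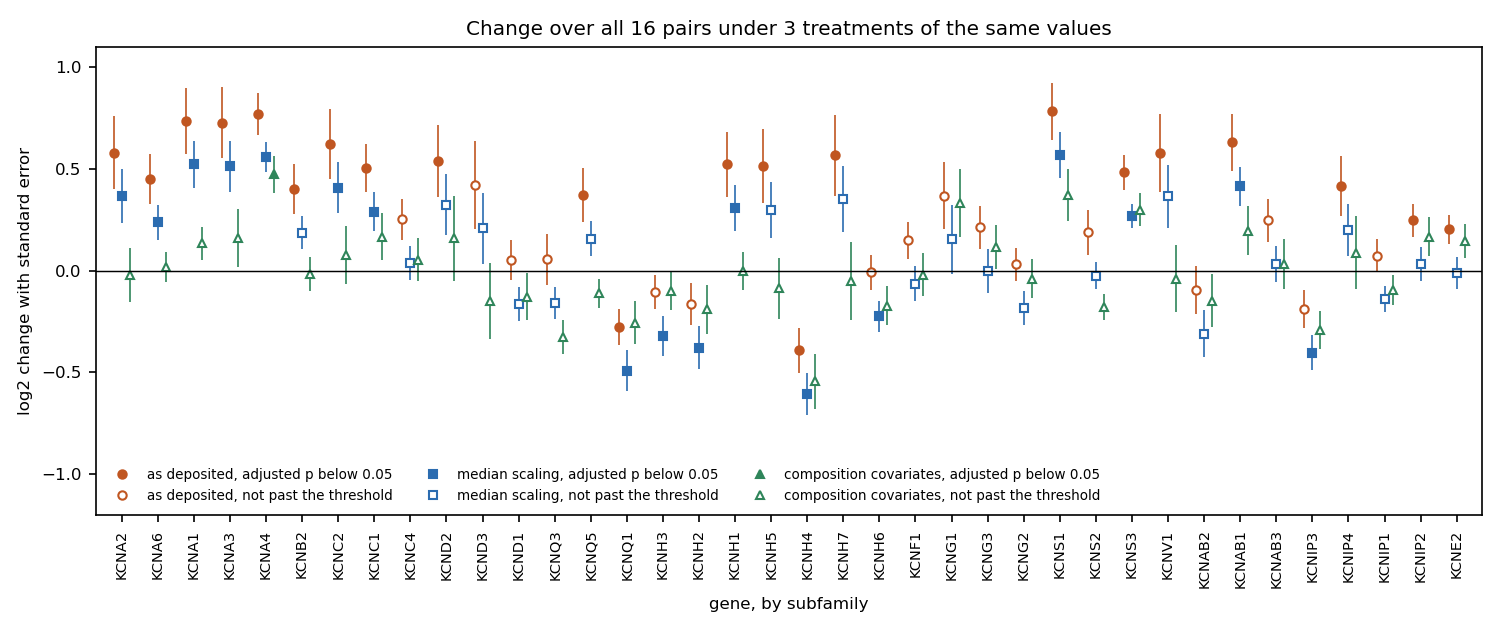
Log2 change over all 16 pairs with its SE for 38 of the tested genes as deposited (orange), after median scaling (blue) and with marker levels of 3 cell types as covariates (green), filled where the adjusted p was below 0.05. KCNA4 is filled in all 3, and KCNH4 lies below 0 in all 3.

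The authors' deposited table gives its own changes for each arm. In drinkers the authors' deposited table has 9 channel genes higher and 8 lower at an FDR below 0.05 among 48 with a value, beside 14.1% of all genes higher and 15.4% lower. Its median log2 change in drinkers is 0.16 for channel genes and -0.025 for all 18922 genes with a value. In the fit to TPM as deposited these medians were 0.30 and 0.20, so the counts of the 2 rest on unlike scales. The 9 are KCNA1, KCNA3, KCNA4, KCNAB1, KCNC2, KCND2, KCNH5, KCNS1 and KCNS3, and the 8 include KCNAB2, KCND1, KCNH2, KCNH3, KCNH4, KCNIP3 and KCNQ1. KCNA4 has a log2 change of 0.87 (FDR = 2.2e-07) and KCNH4 one of -0.81 (FDR = 1.81e-06) for drinkers in the authors' deposited table. For controls the authors' deposited table has 3 channel genes higher and 0 lower, beside 1.04% and 0.74% of all genes. They are KCNA4 at 0.82, KCNC1 at 0.57 and KCNS1 at 0.69 (FDR = 0.00143, 0.0136 and 0.0199 in the authors' deposited table). For KCNC1 the authors' deposited table gives 0.16 in drinkers (FDR = 0.278).

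Partners of these channels were counted from a list of 21 genes for their anchoring, trafficking and accessory proteins. Of the 21, all tested, 9 rose and 0 fell over all pairs, with a median of 0.30, beside the 32.9% and 3.69% of all genes given above. After median scaling 4 rose and 3 fell, beside 9.7% and 17.1%. VAPA, which clusters Kv2 channels at contacts with the endoplasmic reticulum, rose by 0.50 ± 0.11 (adjusted p = 0.00331). LGI1, a secreted protein that binds ADAM22 and acts on Kv1 channels, rose by 0.67 ± 0.15, and its receptors ADAM22 and ADAM23 by 0.51 ± 0.15 and 0.49 ± 0.15. These 4 remained called after median scaling, at 0.28 to 0.46. In drinkers 9 rose, beside 32.7% of all genes, in controls 0 were called by limma-trend, and the difference between the arms was called for 0.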

How the data were processed

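Libraries were unstranded, poly-A selected and single-end, per the labels' protocols. STAR 2.5.2b, HTSeq 0.6.1p1 and DESeq2 are named in the submitters' processing notes, with no settings; no source used here names a genome build. The deposited values of each library are TPM, per the file headers. The authors' deposited log2 fold changes, p-values and FDR for each arm stand in the same table. Before, after and the animal come from the sample titles, and the arm from the table header. The after biopsies of 6 further animals were not analysed here.

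Genes with a mean of at least 1 TPM were tested on log2(TPM + 1) with limma 3.58.1 in R 4.3.3 (limma-trend, animal as a block, Benjamini-Hochberg adjustment over all 15324 genes, threshold 0.05). In the fits of the change by arm or by cohort, all libraries shared 1 estimate of spread. The SE and p of an arm or cohort therefore depend on the other animals too. The log2 scale with a pseudocount understates changes of low genes. The numbers pair libraries of 1 animal: the deviations of the libraries of an animal correlated at -0.18 to 0.64, median 0.33, above 0.1 in 14 of 16 animals. Whole reads were recovered from the TPM steps for 29434 of the 29437 genes detected in at least 2 libraries (99.99%, tolerance 1e-06 around a whole number). The remaining 3 are mitochondrially encoded and missing from the depths. Median scaling gave all libraries the same median log2 level. The fits were run on simulated data with independent noise for each gene and no shift of whole libraries. The outcome is not given here, and that run does not show how the fits behave under the shift of all genes seen here.

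Channel genes, partners and markers were chosen with earlier results of these data known. Of the channel genes, 26 are named by a rule: the 12 smallest p over all pairs, the 3 smallest p for each difference between arms or cohorts, up to 12 per arm with an FDR below 0.05 in the authors' deposited table, and the highest of each subfamily. Others are named where they complete a count. Values of certain channel genes are not reported here, though counts and medians over the channel genes include them. RefSeq symbols of T2T-MFA8v1.1 matched all 52 and served for neighbouring and overlapping genes, of which 22 of the 52 overlap at least 1. Tables and figures used matplotlib 3.10.9, pandas 2.3.3, numpy 2.4.6 and Python 3.11.15.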

Additional observations from a re-analysis of the deposited data

Results flagged for a closer look

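Among 156 groups of levels or changes of the 26 named genes, 7 held an animal whose gap to its nearest neighbour took an unusually large part of the group's range; chance alone gives about 1 in 20 groups. The first biopsy of the control X10234 was high for KCNA3 at 5.96 TPM (next 3.38), for KCNH1 at 19.2 TPM (next 11.6) and for KCNH7 at 1.57 TPM (next 0.966). The second biopsy of the control X10204 was low for KCNA6 at 17.1 TPM (next 27.3) and for KCNIP3 at 97.9 TPM (next 125). Among drinkers, animal X10226 was low for KCNH2 after at 8.68 TPM (next 13.7) and animal X10200 was high for KCNQ1 before at 3.49 TPM (next 1.91). No flagged value was a change between biopsies, and on the values as deposited, with equal library weights, none of the 26 genes differed between arms or cohorts by the test of the difference at an adjusted p below 0.05 or by opposite directions in every animal.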

How the results depend on the processing

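Counts of channel genes called over all pairs (21 higher, 2 lower) became 12 and 7 with median scaling, 1 and 0 with the composition or the neuron covariate and 3 and 1 with the mitochondrial covariate. They became 18 and 1 without the replicate block or at a minimum of 5 TPM, and 21 and 5 with array weights. Without mitochondrial genes or with limma-voom they were 14 and 6. In pairs of 1 RNA code they were 16 and 2, without a filter 15 and 2, and at a minimum of 0.1 TPM 23 and 2. In drinkers (13 and 1) they became 7 and 9 with median scaling, 1 higher with the composition covariates, 1 and 0 with the neuron covariate, 2 higher with the mitochondrial covariate, 4 and 0 in pairs of 1 RNA code, and 5, 6 and 6 lower with array weights, without mitochondrial genes and with limma-voom. In cohort 9 (18 and 1) they became 0 and 0 with the composition or the neuron covariate, 6 higher with the mitochondrial covariate, and 9, 7, 7, 4 and 7 lower with median scaling, array weights, no mitochondrial genes, pairs of 1 RNA code and limma-voom. Where a single count is named for drinkers or cohort 9, the other is not given here. Where no share of all genes was given above, the count of an alternative run has no background beside it. Controls went from 0 to 1 with median scaling or limma-voom. Cohort 13 went from 1 to 0 without the replicate block, at minima of 0.1 or 5 TPM, without a filter, with the composition or mitochondrial covariate and in pairs of 1 RNA code, to 2 with limma-voom and to 3 with array weights, which also gave 22 for the cohort difference. KCNA4 lies under the minimum of 5 TPM and was not tested there. Leaving out each animal gave 15 to 22 higher and 2 to 3 lower over all pairs, 9 to 20 and 1 to 3 in drinkers, 13 to 20 and 0 to 3 in cohort 9 and 0 to 1 in cohort 13. The drinker-control difference and both comparisons at a single biopsy stayed at 0 under every alternative run. Values that crossed 0 over all pairs, among the 38 tested genes reported by name or in ranges, were with the composition and then the neuron covariate KCNA2 (-0.020, -0.034), KCNB2 (-0.018, -0.017), KCND1 (-0.13, -0.13), KCND3 (-0.15, -0.18), KCNF1 (-0.019, -0.017), KCNG2 (-0.039, -0.043), KCNH1 (-0.0021, -0.013), KCNH5 (-0.087, -0.090), KCNH7 (-0.051, -0.047), KCNIP1 (-0.096, -0.10), KCNQ3 (-0.33, -0.34), KCNQ5 (-0.11, -0.10), KCNS2 (-0.18, -0.18) and KCNV1 (-0.040, -0.039). With median scaling they were KCND1 (-0.16), KCNE2 (-0.011, and -0.020 in drinkers), KCNF1 (-0.064), KCNG2 (-0.18), KCNIP1 (-0.14), KCNQ3 (-0.16) and KCNS2 (-0.025). With the mitochondrial covariate they were KCND1 (-0.097), KCND3 (-0.077), KCNG2 (-0.085), KCNIP1 (-0.074), KCNQ3 (-0.23) and KCNS2 (-0.075), without mitochondrial genes KCND1 (-0.065), KCNG2 (-0.061), KCNIP1 (-0.058) and KCNQ3 (-0.076), and with limma-voom KCND1 (-0.055), KCNG2 (-0.039), KCNIP1 (-0.052) and KCNQ3 (-0.070). KCNG2 was at -0.020 with array weights and -0.021 in pairs of 1 RNA code. Over the omissions of 1 animal the values ran from -0.0029 to 0.096 for KCND1, from -0.00096 to 0.064 for KCNG2, from -0.060 to 0.026 for KCNH6 and from -0.012 to 0.10 for KCNQ3. The cause was not tested. Depth limits the low genes, with 15 to 167 recovered reads per library for KCNQ1 and 23 to 318 for KCNH7.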
